A study of Mus musculus with 16 samples.

Results

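The Hox genes encode homeodomain transcription factors and lie in 4 clusters, HoxA to HoxD. H3K4me1, monomethylated histone H3 lysine 4, was described across these clusters in dendritic cells and 3T3 fibroblasts, both unstimulated. The members are all deposited H3K4me1 summits, the 1 bp positions of strongest signal in each called peak, that lie in fixed mm9 intervals around the clusters. HoxA was taken as chromosome 6 from 52000001 to 52350000 and HoxB as chromosome 11 from 95950001 to 96350000. HoxC was taken as chromosome 15 from 102650001 to 103000000 and HoxD as chromosome 2 from 74400001 to 74750000. These limits include flanking DNA. The intervals held 63 of the 79796 dendritic cell summits and 72 of the 81860 3T3 summits, 135 of 161656 in all.

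The dendritic cells were grown from mouse bone marrow progenitors in SCF, IL-3 and IL-6. The progenitors carried a hairpin, delivered by retrovirus, against the histone demethylase JmjD2d and were selected in histidinol at 2 mM. They were differentiated for 4 days in GM-CSF with SCF and for 4 days in GM-CSF alone. The 3T3 cells, an established mouse fibroblast line, were grown under standard conditions, and neither group received a stimulus. Chromatin was precipitated with the anti-H3K4me1 antibody clone CMA302 in both. Of the series' 16 samples, which also cover H3K27ac, acetylated H4, input DNA and stimulated cells, 14 were not analysed here. The cell type field of the 3T3 library names dendritic cells, whereas its title, description and growth protocol name 3T3, and it was treated as 3T3. Each cell type is 1 library, so no value has a replicate error, no difference was tested, and intervals cover counting error only. Cell type, the hairpin and the library cannot be told apart in any difference between the lists. The files hold positions, so the identity of the cells was not checked against marker genes.

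Hox proteins specify position along the body axis, and within a cluster the order of the genes follows the order in which they are expressed from head to tail. In cells where they are silent the clusters are typically covered by Polycomb repression, and adult fibroblasts keep a Hox pattern that reflects where in the body they arose. In blood formation, Hoxa9 and Hoxa10 act in stem and progenitor cells and are switched down as cells mature, and Hoxb4 can expand blood stem cells. H3K4me1 is found at enhancers, active or poised, and beside promoters.

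The intervals were set around 38 listed Hox genes, and all 38 matched a RefSeq gene table of GRCm38. Genes are listed here by the lowest coordinate of their entry, which need not be the order of their promoters. This sorting put Hoxb3 before Hoxb4 and Hoxd3 before Hoxd4, which is not to be read as their order in the cluster. In that build, along rising coordinates, HoxA runs from Hoxa2 and Hoxa3, which pattern the hindbrain and neck, through Hoxa4, Hoxa5, Hoxa6, Hoxa7, Hoxa9, Hoxa10 and Hoxa11 to Hoxa13, which acts in limb ends and the urogenital tract. The other clusters run the opposite way. HoxB starts with Hoxb13 and passes Hoxb9, Hoxb8, Hoxb7, Hoxb6, Hoxb5, Hoxb3, Hoxb4 and Hoxb2 before ending with Hoxb1, a hindbrain gene. HoxC runs from Hoxc13, known for its part in hair and nail, through Hoxc12, Hoxc11, Hoxc10, Hoxc9, Hoxc8, Hoxc6 and Hoxc5 to Hoxc4. HoxD runs from Hoxd13, a digit gene, through Hoxd12, Hoxd11, Hoxd10, Hoxd9, Hoxd8, Hoxd3 and Hoxd4 to Hoxd1. The table is of another build than the summits, so no summit was assigned to a gene and none of the values below belongs to a single Hox gene.

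The 4 clusters differed in which cell type carried more H3K4me1 summits. HoxB was marked mainly in 3T3, with 25 summits against 7 in dendritic cells. HoxD was marked more in dendritic cells, with 16 against 7. HoxA was densely marked in both, with 24 dendritic cell and 29 3T3 summits, and HoxC held 16 and 11. Summed over the clusters the lists were near equal, at 4.34 dendritic cell and 4.97 3T3 summits per 100 kb.

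**Figure D1:**
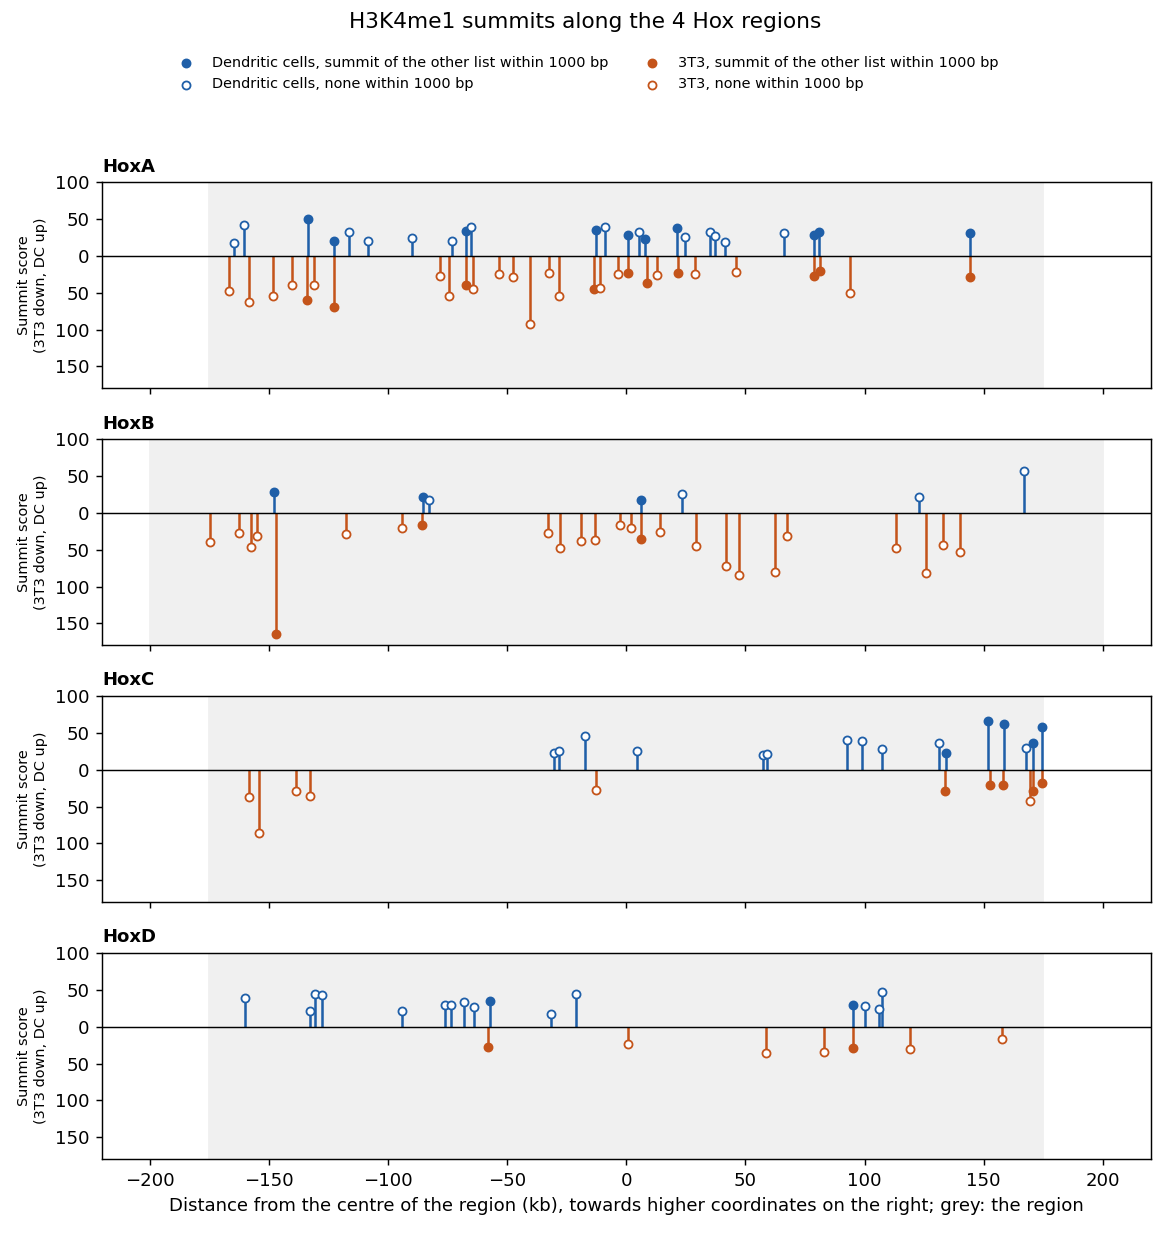
Position of every H3K4me1 summit (x axis, kb from the centre of the region) and its score (y axis, dendritic cells upwards, 3T3 downwards) in the 4 Hox regions, shaded grey. Filled points have a summit of the other list within 1000 bp. HoxA shows marks of both cell types in every 50 kb part, and HoxB mostly 3T3 marks. HoxC and HoxD show long stretches with marks of 1 cell type or none.

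The ratio of 3T3 to dendritic cell summits was set relative to the whole lists, as a log2 value with an exact binomial 95% interval that takes summits as independent. It was 1.80 in HoxB (0.55 to 3.25), an interval that did not include 0. It was -1.23 in HoxD (-2.75 to 0.13), -0.58 in HoxC (-1.83 to 0.62) and 0.24 in HoxA (-0.59 to 1.08). The whole chromosomes that carry the clusters were close to even, with values of 0.19 for chromosome 6, 0.09 for chromosome 11, 0.17 for chromosome 15 and -0.07 for chromosome 2. With the limits of the rule, the intervals of HoxA, HoxC and HoxD included 0. The HoxC value depended on where the region was set to end. It was -3.21 in the inner part, with 50 kb removed from each end (-8.66 to -0.35, 9 dendritic cell summits and 1 3T3 summit), and 0.17 with 100 kb added at each end (32 and 37). Among equal numbers of top-scoring summits HoxA was at 1.68 (0.16 to 3.48).

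**Figure D2:**
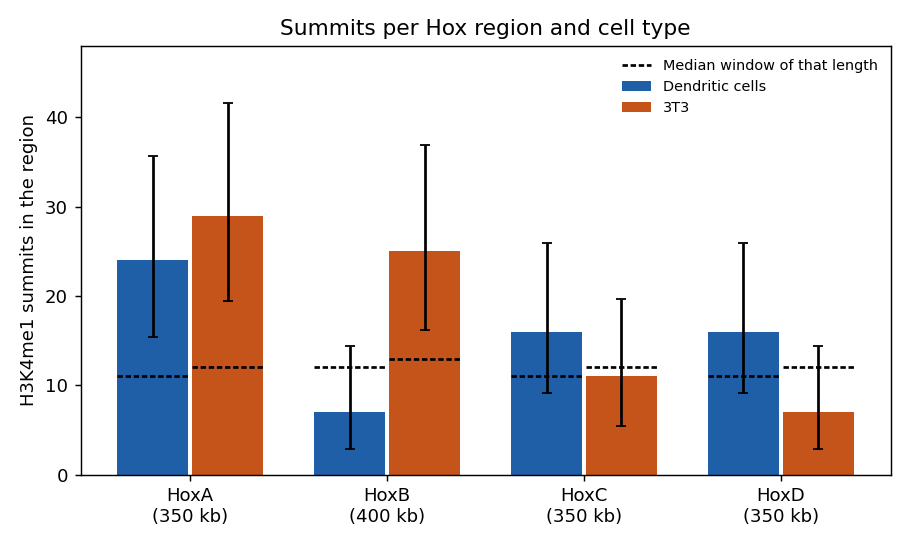
H3K4me1 summits (y axis) in each Hox region for dendritic cells and 3T3, with exact Poisson 95% intervals as error bars; dashed lines give the median number in all windows of the same length with any summit. HoxA exceeds the median window in both cell types, and HoxB lies under it in dendritic cells (7 against 12) and above it in 3T3 (25 against 13).

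The same numbers were read against the rest of the genome, tiled in windows of the length of each region. A median window of 350 kb with any summit held 11 dendritic cell and 12 3T3 summits, and one of 400 kb held 12 and 13. HoxA stood in the upper part of both lists: 24.3% of windows held at least as many dendritic cell summits and 13.3% at least as many 3T3 summits. For HoxB, 40.1% of windows held as few dendritic cell summits or fewer, and 25.9% held at least as many 3T3 summits. The counts of each list by itself were thus not rare for any of the 4 regions.

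A difference of at least 2-fold between the 2 summit numbers was found in 2 of the 4 regions, HoxB (3.57-fold more in 3T3) and HoxD (2.29-fold more in dendritic cells). Among windows with at least 20 summits, at least 2-fold more 3T3 summits were found in 17.3% of those of 400 kb, the length of HoxB. Among those of 350 kb, the length of the other regions, the 3T3 number was at least 2-fold higher in 16.4% and the dendritic cell number in 13.7%. A 3T3 share at least as high as the 78.1% of HoxB (60.03 to 90.7) was found in 9.57% of 3124 windows. A 3T3 share as low as the 30.4% of HoxD (13.2 to 52.9) or lower was found in 10.4% of 3299 windows. The imbalance of HoxB and HoxD was thus shared by many other windows, while the regions lay on opposite sides of the median window, at 48.4 and 48.1%.

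**Figure D3:**
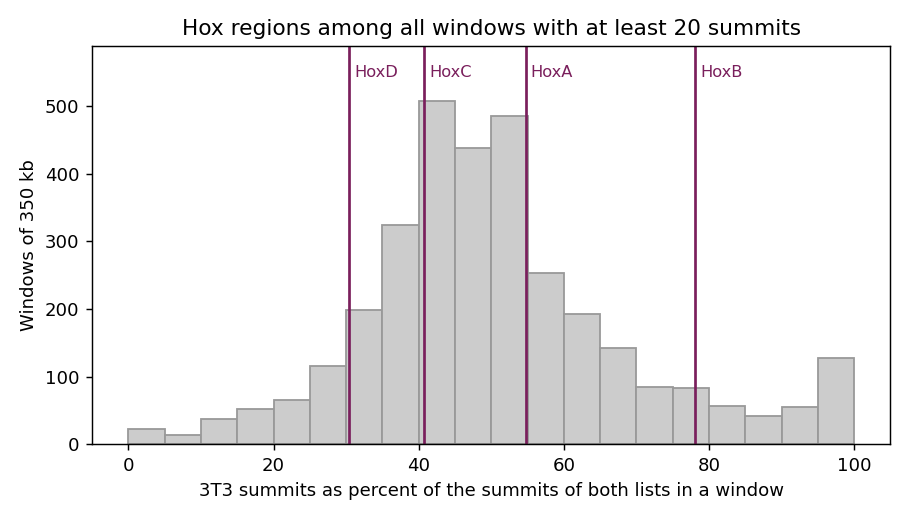
Windows of 350 kb with at least 20 summits (y axis, number of windows) by the share of their summits that belong to the 3T3 list (x axis, percent). Vertical lines mark HoxD at 30.4%, HoxC at 40.7%, HoxA at 54.7% and HoxB, whose own length is 400 kb, at 78.1%.

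HoxA was the most densely marked of the 4 clusters in both cell types. Among equal numbers of top-scoring summits this held for 3T3 (16) but not for dendritic cells, with 5 in HoxA against 8 in HoxC. Every 50 kb part of it held summits of both cell types, and the part from 52150001 to 52200000 held 7 of each. The balance alternated along the region. 3T3 had more summits from 52000001 to 52050000 (6 against 3), from 52100001 to 52150000 (8 against 3) and from 52250001 to 52300000 (3 against 2). Dendritic cells had more from 52050001 to 52100000 and from 52200001 to 52250000 (4 against 2 in each).

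The highest HoxA summits of the 2 cell types lay apart. In 3T3 the highest was at 52134787 with a score of 93 (percentile 94.7 of its list), and its nearest dendritic cell summit was 25138 bp away. It was part of a run of 7 3T3 summits from 52110807 to 52161249 with no dendritic cell summit between them. The last of the 7 is a site shared with dendritic cells, 984 bp from their summit. The next highest 3T3 summits were at 52052149, with a score of 70, and at 52016797, with a score of 62. In dendritic cells the highest was at 52041451 with a score of 50 (percentile 70.6 of its list), with a 3T3 summit of score 60 at a distance of 247 bp. The following ones were at 52014415, with a score of 42, and at 52109649, with a score of 40. The dendritic cell summits of HoxA thus stayed within the lower and middle scores of their list, while 3T3 summits reached its top decile once.

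Several sites of HoxA were called in both cell types at nearly the same positions. At the higher coordinates, dendritic cell summits at 52253858 and 52255924 lay 243 and 292 bp from 3T3 summits, as a matching doublet. The summit at 52319329 lay 113 bp from its 3T3 counterpart, and between this site and the doublet only 3T3 had a summit, at 52268945 with a score of 50. At 52175823 the positions of the 2 lists differed by 6 bp, the closest match in the 4 regions.

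HoxB carried few and weak summits in dendritic cells. The 7 scores were 29 at 96002210, 21 at 96064655, 18 at 96067364, 18 at 96156359, 26 at 96173182, 22 at 96272657 and 57 at 96317039. All but the last were below the median of the dendritic cell list, 36. The last, at the higher-coordinate end of the region, lay 26975 bp from the nearest 3T3 summit. Their median of 22 had an order-statistic interval of 18 to 57, which included 36. Among 400 kb windows with at least 5 dendritic cell summits, 0.938% had a median score as low as the 22 of HoxB or lower. Windows with more summits have steadier medians than one of 7 summits, so this percentage is not a measure of rarity. The median of HoxB rose to 32.5 with 100 kb added at each end.

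In 3T3 the same region was marked along most of its length. Summit scores ran from 17 to 164 with a median of 38, and 4 of the 25 lay in the top decile of the list. The highest, at 96002879, scored 164 (percentile 99.5) and was also the highest summit of the 4 regions in either list. It lay 52.9 kb from the lower-coordinate limit of the region, which includes flanking DNA. Its dendritic cell neighbour, 669 bp away, scored 29. The next were at 96197452, with a score of 84, and at 96275638, with a score of 81. Long parts of HoxB had 3T3 summits with no dendritic cell summit between them. From 96117230 to 96156331 there was a run of 7, the last of them a site shared with dendritic cells, and from 96179124 to 96263238 a run of 6 with a median score of 60. Dendritic cells had a stretch of 99.5 kb without a summit from 96173182 to 96272657, and it held 6 3T3 summits (Poisson interval 2.20 to 13.1).

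HoxC was divided into blocks. The lower-coordinate end carried 4 3T3 summits between 102666784 and 102692301 and no dendritic cell summit. The middle carried dendritic cell summits almost alone, with a run of 7 from 102829562 to 102956165. The higher-coordinate end, from 102950001 to 103000000, carried 7 dendritic cell and 6 3T3 summits, with all 5 shared sites of HoxC among them. This end is outside the limits with 50 kb removed from each end. The region then held no shared site, and its dendritic cell median score fell from 33 to 25.

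The highest dendritic cell summits of HoxC all lay in that shared end. They were at 102976896 with a score of 67 (percentile 84.2, the highest dendritic cell value in the 4 regions), at 102983505 with 63 and at 102999347 with 58. The 3T3 summits beside them scored 20, 20 and 18 (percentiles 9.06, 9.06 and 3.52 of the 3T3 list). The highest 3T3 summit of HoxC was instead at the opposite end, at 102670716, with a score of 86 (percentile 93.2), and was 93752 bp from any dendritic cell summit. It was followed by 102994315 with 42 and 102666784 with 37. The single highest 3T3 summit thus stood at the opposite end of HoxC from the highest dendritic cell summits, and the next 3T3 summit stood among them. The 350 kb beyond the shared end held 42 dendritic cell summits with a median score of 51.5. It also held 47 3T3 summits with a median of 29. High dendritic cell scores were thus not particular to the HoxC side of this limit.

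HoxD showed the reverse of HoxB in number but not in height. Dendritic cells had 12 summits between 74414802 and 74554093, then none for 116 kb, then 4 between 74670336 and 74682215. Their scores ran from 18 to 48 with a median of 29.5. The highest were at 74682215 with 48, at 74444550 with 45 and at 74554093 with 44, the last at the edge of the stretch without summits.

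The 7 3T3 summits of HoxD were spread thinly, with scores up to 35 (percentile 54.3 of their list). They scored 28 at 74517141, 24 at 74575746, 35 at 74633829, 34 at 74657965, 29 at 74670272, 30 at 74694111 and 17 at 74732618. Only the values of 35 and 34 exceeded the list median of 33. Of these summits, 4 lay in the 116 kb where dendritic cells had none, the last of them 64 bp from its end. This last one is a site shared with dendritic cells, and the other 3 were called in 3T3 alone. The part from 74414802 to 74510908, with 9 summits, was marked in dendritic cells alone.

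Stretches without a called summit were long in HoxC and HoxD. In 3T3, no summit was called from 73757695 to 74517141, a stretch of 759 kb that entered HoxD from outside and covered 117 kb of it. Of all 81838 stretches between neighbouring 3T3 summits, 0.486% were at least as long. It held 12 dendritic cell summits (6.20 to 21.0) with a median score of 31.5. In HoxC, 3T3 had none from 102812200 to 102958682, 146 kb (2.47% of stretches at least as long), where dendritic cells had 7. In dendritic cells, none was called for 218 kb from 102576964 to 102794490 (1.99% at least as long), a stretch that began outside HoxC and held 8 3T3 summits with scores up to 86. These percentages set the longest stretch of a region against all stretches of the list. Most of those are short, with medians of 8173 bp in dendritic cells and 9167 bp in 3T3. A low percentage therefore follows largely from the choice of the longest stretch and does not show that such stretches are rare.

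Both lists were empty over 102 kb of HoxC, from 102692301 to 102794490, against 58.1 kb in HoxD, 50.3 kb in HoxA and 49.9 kb in HoxB. Of the stretches between neighbouring summits of the joined lists, 1.71% were at least as long as that of HoxC, with the same limit. Over the 4 regions, 16 of 29 parts of 50 kb held summits of both cell types, 6 of dendritic cells only, 6 of 3T3 only and 1 of neither. The depth of the libraries is unknown, so stretches without a summit are stretches without a call, not stretches shown to lack the mark.

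The surroundings differed between clusters. The 350 kb next to HoxD held 1 dendritic cell and no 3T3 summit at lower coordinates, and no dendritic cell and 13 3T3 summits at higher coordinates. HoxD is known to be flanked by gene deserts that hold its limb enhancers. HoxA had 23 dendritic cell and 21 3T3 summits on its lower side and 32 and 21 on its higher side. The 400 kb on the lower side of HoxB held 44 and 34, so the low dendritic cell number of HoxB was not seen in the DNA next to it there. On its higher side there were 17 and 27. HoxC was followed at higher coordinates by the densest neighbour, with 42 dendritic cell and 47 3T3 summits. Their median scores were 51.5 and 29.

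Dendritic cell scores in the Hox regions were below those of their list as a whole. The deposited score, taken as peak height, had a median of 29 over the 63 dendritic cell summits (order-statistic 95% interval 27 to 33) against 36 in the whole list. Of the 63, 17 were above the list median (26.98%, Clopper-Pearson 16.6 to 39.6), against 48.9% of all dendritic cell summits. None of the 63 was in the top decile of the list, which allows a share of up to 4.76% by 3 counts of the total (Clopper-Pearson upper limit 5.69%), against 10.2% of all. By cluster the number above the list median was 5 of 24 in HoxA, 1 of 7 in HoxB, 6 of 16 in HoxC and 5 of 16 in HoxD. The medians of the regions were set beside those of windows of the same length with at least 5 summits. A median as low was found in 28.0% for HoxA, 39.8% for HoxC and 19.2% for HoxD. The 0.938% for HoxB rests on a median of 7 summits.

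In 3T3 the scores resembled those of the whole list. The median was 34.5 over the 72 summits (28 to 40) against 33, and 37 were above the list median (51.4%, 39.3 to 63.3), against 48.9% of all 3T3 summits. In the top decile were 6 (8.33%, 3.12 to 17.3), against 10.1% of all. They were divided between the clusters, with medians of 39 in HoxA and 38 in HoxB, and 29 in both HoxC and HoxD. The HoxA median depended on the limits of the region, at 27.5 with 50 kb removed from each end and 29 with 100 kb added, both under the list median. The cluster medians had wide intervals that overlapped, 26 to 47 in HoxA, 28 to 48 in HoxB, 20 to 42 in HoxC and 17 to 35 in HoxD.

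**Figure D4:**
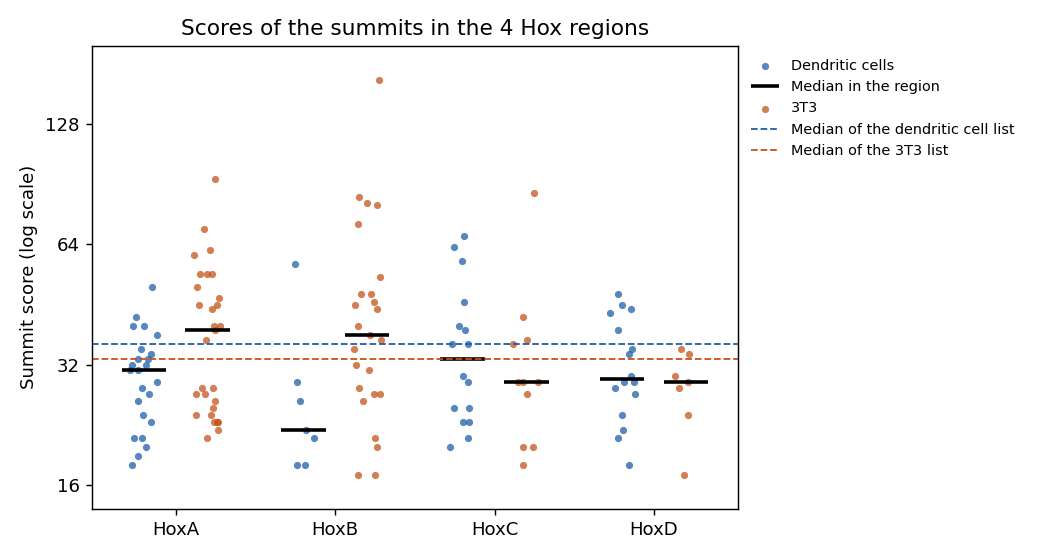
Score of every summit (y axis, log scale) in each Hox region, dendritic cells left and 3T3 right, with the median of the region as a bar and the median of each whole list as a dashed line. Dendritic cell medians lie under their list's median of 36 in all 4 regions, and 3T3 medians lie above 33 in HoxA (with the limits used) and HoxB and under it in HoxC and HoxD; scores are not scaled between the lists.

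Sharing of sites between the cell types was near that of the whole lists. Of the Hox summits, 20 of 63 in dendritic cells (31.7%, 20.6 to 44.7) and 20 of 72 in 3T3 (27.8%, 17.9 to 39.6) had a summit of the other list within 1000 bp. In the whole lists the shares were 30.6% and 29.8%. Among the clusters, HoxA had 10 shared sites, HoxC 5 (all in the 50 kb at its higher-coordinate end), HoxB 3 and HoxD 2. As a share of the 3T3 summits this was 45.5% in HoxC (16.8 to 76.6), 34.5% in HoxA (17.9 to 54.3), 28.6% in HoxD (3.67 to 71.0) and 12.0% in HoxB (2.55 to 31.2). As a share of the dendritic cell summits it was 42.9% in HoxB (9.90 to 81.6), 41.7% in HoxA (22.1 to 63.4), 31.2% in HoxC (11.02 to 58.7) and 12.5% in HoxD (1.55 to 38.3). These intervals are wide and overlap, and the difference in sharing between clusters was not tested.

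At the 20 shared sites the 2 scores were compared as a ratio relative to the median of all 24378 such pairs in the genome. A 2-fold or larger difference was found at 3 of the 20 sites towards 3T3 and at 3 towards dendritic cells, 15.0% each way. Of all pairs, 11.9% and 11.6% differed as much, so the number of uneven Hox sites was near the share in the genome. The 3 with the higher 3T3 score were in HoxA and HoxB. The 3 with the higher dendritic cell score were in HoxC, all in the 50 kb at its higher-coordinate end. That end borders a flank with a dendritic cell median score of 51.5. This split by cluster rests on 6 sites and was not tested.

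In HoxB the pair at 96002879 in 3T3 and 96002210 in dendritic cells, with scores of 164 and 29, had a relative log2 ratio of 2.62, the highest. The pair at 96156331 and 96156359 scored 35 and 18, a relative log2 ratio of 1.08. In HoxA the pair at 52052149 and 52052308 scored 70 and 20, a relative log2 ratio of 1.93. The other 9 HoxA pairs lay between -0.60 and 0.81, so most shared HoxA sites had like relative heights.

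In HoxC the pairs with dendritic cell summits at 102976896, 102983505 and 102999347 had relative log2 ratios of -1.62, -1.53 and -1.57. The pair at 102959224, which scored 23 in dendritic cells and 29 in 3T3, had the highest of HoxC, 0.46. The HoxD pairs were even, at -0.20 and 0.07. With 1 library per cell type these ratios could not be set against the spread between libraries.

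**Figure D5:**
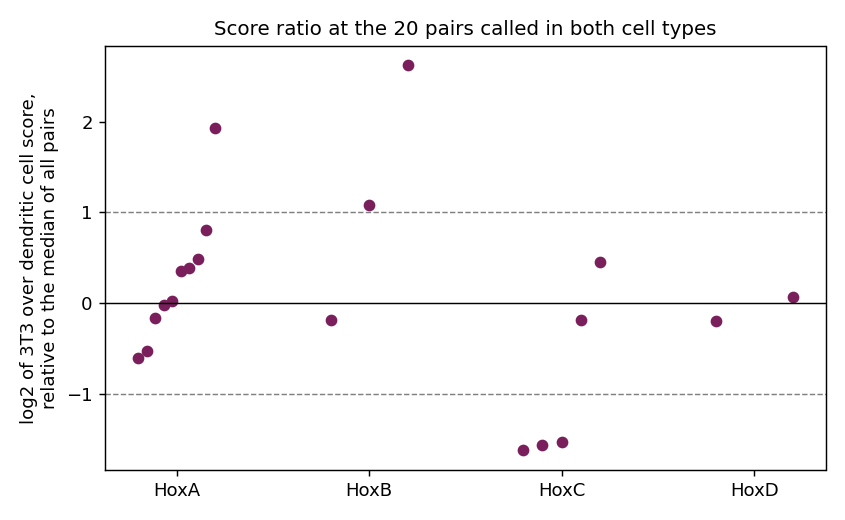
Relative log2 ratio of the 3T3 to the dendritic cell score (y axis) at each of the 20 sites called in both cell types, by region and sorted within it; dashed lines mark a 2-fold difference. The points past 2-fold towards 3T3 are 1 in HoxA and 2 in HoxB, and those towards dendritic cells are 3 in HoxC.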

How the data were processed

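DNA from formaldehyde-fixed nuclei was sheared to about 300 bp, amplified for 18 PCR cycles and read as single 36 bp reads, per the labels' protocols. Reads were aligned with Bowtie to mm9 and peaks called with MACS 1.4, per the submitters' processing notes, 1 list per library. Per the file headers, the p threshold was 1e-04, with no model, no local lambda and a shift of 150. Whether input DNA entered the calling is not stated in the labels or headers. The authors deposited a score per summit, taken here as a signal, the peak height. It is the authors' value, is unscaled between lists and was read within a list. Read totals, and so depth, are unknown.

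Groups came from the sample titles. Counts carry exact Poisson, and shares Clopper-Pearson, 95% intervals. Sites were shared within 1000 bp, and pairs are mutually nearest. Windows were tiled without the Y and mitochondrial chromosomes. Named summits are the 3 highest per list and region, the pairs of extreme ratio and the longest stretches. Other summits and runs were named after their values were seen, as were the minima of 20 and 5 summits per window, the flanks and the 2-fold threshold. Members and lists were chosen with earlier results of these data known. The computations were tested on simulated data. Alternatives changed region limits, the shared distance, a score minimum, merging and window placing. Python 3.11.15, numpy 2.4.6, pandas 2.3.3, scipy 1.17.1 and matplotlib 3.10.9 were used.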

Additional observations from a re-analysis of the deposited data

How the results depend on the processing

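Of 84 combinations of a value and an alternative, 67 stayed within the counting interval of the value (for lengths of stretches, within 1.5 times), 17 moved outside it and none changed the direction of a 2-fold difference. Merging summits within 1000 bp and other limits of the regions left each score median within its interval, but the 3T3 median of HoxA fell from 39 to 27.5 and 29 with other limits, under the list median. Moving the windows left each window share within its interval. The main mover was keeping the 39898 highest-scoring summits of each list, which leaves fewer summits in a region. The log2 ratio of 3T3 to dendritic cell summits then became 1.68 in HoxA (0.16 to 3.48, 16 and 5 summits) and 3.91 in HoxB (15 and 1), and it was -1.32 in HoxD. The shared share became 20.0% of 5 dendritic cell and 6.25% of 16 3T3 summits in HoxA. It was 0.0% in HoxB (of 1 and 15), HoxC (of 8 and 4) and HoxD (of 5 and 2). The upper limits of these zero shares ran from 21.8 to 97.5%. The share over all top-scoring summits was not computed, so these shares have no background and cannot be set against the 30.6% and 29.8% of the whole lists. The longest stretch inside the region grew in dendritic cells to 153.6 kb in HoxA and 367.0 kb in HoxB, and in 3T3 to 85.2 kb in HoxA, 119.3 kb in HoxB, 302.0 kb in HoxC and 233.8 kb in HoxD. With 50 kb removed from each end the ratio of HoxC became -3.21 (-8.66 to -0.35). These intervals of HoxA (top-scoring summits) and HoxC (narrower limits) excluded 0, and those with all summits and the limits used did not. With 100 kb added it was 0.17, a change of sign within the interval. No paired analysis was possible because each cell type is 1 library and no label gives a replicate, and none could be left out.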
